A study of Rattus norvegicus with 8 samples.

Results

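The circadian clock genes examined here were the period genes Per1, Per2 and Per3, the activator genes Clock and Arntl, the cryptochrome genes Cry1 and Cry2, the nuclear receptor genes Nr1d1 and Nr1d2, and the output gene Dbp. They were chosen by name, as all site rows of the expression table that carry 1 of these 10 gene symbols. Rows were found for 8 of the 10 genes, with 42 polyadenylation sites of 73922 and 5631 reads of 13341135 (0.0422%). Cry1 and Nr1d1 had no row under their symbols and were not analysed here. The whole table gave sites to 12239 genes.

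The measurement was whole transcriptome termini site sequencing (WTTS-seq), which counts reads at the 3′ ends of polyadenylated RNA, so that each row is a site where transcripts were seen to end. A library was made from hypothalamic RNA of each of 8 rats, all adult Long-Evans males. The control group of 4 rats ate standard chow with 0.51 kcal/g from fat, and the obesity group of 4 rats had free access to a high fat diet with 1.71 kcal/g from fat. Tissue was taken after 36 days, and the clock time of collection was not given in the sources used here. Clock transcripts move over the day, so a difference in collection time and a difference in diet cannot be told apart in a single collection. In bulk tissue, fewer cells that express a gene and less RNA per cell cannot be told apart either.

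In mammals the clock is a feedback loop of transcription. The Clock and Arntl (Bmal1) proteins pair and activate genes through E-box sequences, among them the period, cryptochrome and Nr1d genes and Dbp. Period and cryptochrome proteins return to the nucleus and repress that pair, while the Nr1d receptors repress Arntl through ROR elements. Dbp carries the rhythm to output genes through D-box sequences. The suprachiasmatic nucleus of the hypothalamus holds the master clock, and most other hypothalamic cells carry the same loop.

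The elements that tie the genes together were looked up in promoter windows of 300 bases (250 before to 50 after the start) from RefSeq, build GRCr8. The table held 11 windows of 9 of the 10 genes, with Arntl listed as Bmal1. Stretches of at most 30 bases around each match are shown to let the E-box, D-box and ROR elements be seen, with the match in capitals, written 5′ to 3′ on the strand of the gene.
Per2, chr9:99497167-99497196, minus strand, D-box: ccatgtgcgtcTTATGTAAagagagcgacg
Per2, chr9:99497039-99497066, minus strand, E-prime-box: acgcgcgcggtCACGTTttccactatgt
Cry2, chr3:98860633-98860660, minus strand, E-prime-box on the opposite strand: cacatggtgggAACGTGagggggcgggg
Nr1d1, chr10:84229629-84229656, minus strand, E-box: gtcagctcccaCACGTGtctggggatcc
Nr1d1, chr10:84231970-84231997, minus strand, E-prime-box on the opposite strand: gcatagagctcAACGTGcccgctgctgg
Arntl, chr1:176766301-176766327, plus strand, ROR element core: aaggcagaaagTAGGTCAgggacggag

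Each motif was searched on both strands. The E-box CACGTG was in 6.42% of 33469 promoter windows and in 1 window of the clock genes. The variant CACGTT was in 4.83% of all windows and in 3 of the clock genes' windows (Per2, Cry2 and Nr1d1). The D-box TTATGTAA was in 0.893% of windows and, among the clock genes, in that of Per2. The ROR core TAGGTCA was in 2.63% and, among the clock genes, in that of Arntl. The cyclic AMP element TGACGTCA was in 1.83% of all windows and in 0 of the 11. A match is a run of letters and not a measured binding site, and the 3′ end counts below do not read promoters.

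The depth was 1417531 to 1957726 reads per library, and a clock gene rested on 162 (Per2) to 2138 (Dbp) reads over the 8 libraries. Control library 1 and obesity library 1 held 14788 and 10659 sites without a read, against 4062 to 6622 in the other libraries. Obesity library 2 had 6.99% mitochondrial reads, while the other obesity libraries had 3.85 to 4.34% and the control libraries 5.32 to 8.27%. The tissue was checked by hypothalamic peptide genes, and Avp had 809 to 1578 reads, Pmch 165 to 314 and Hcrt 9 to 31 in each library. Pomc varied most relative to its level, from 4 reads in obesity library 4 to 79 in control library 2, Agrp had 11 to 59 and Gal 2 to 16. Oxt had 66 to 100 reads in controls and 38 to 65 in obesity, as counts not scaled to library size, and no test of Oxt is given here. The part of these differences in the clock gene values was not tested.

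Abundance is given as CPM, the reads of a gene or site relative to the library size after TMM adjustment. A transcript is counted at its end, so no scaling by length was made. By the mean over the 8 libraries, Dbp was the most abundant clock gene, at 190 ± 67.6 CPM (SD, n = 8), above 92.4% of genes. That sum includes a site on the opposite strand with 19.0% of the Dbp reads, described below. On the gene strand alone Dbp was at 157 ± 39.8 CPM, still the most abundant. The values that follow are again over all sites. Clock followed at 116 ± 36.3 CPM and Cry2 at 54.6 ± 16.3 CPM. Per3, Per1 and Nr1d2 came next at 41.0 ± 5.34, 32.9 ± 6.59 and 28.6 ± 8.17 CPM. Arntl, at 15.9 ± 8.15 CPM, and Per2, at 13.9 ± 5.10 CPM, were the least abundant. The ranges of mean ± SD overlapped between all neighbours in this order except Cry2 and Clock. Summed over all of their sites, the pair of activators was therefore unequal in 3′ end counts, with Clock above Arntl in each library. That order depends on which sites are summed. At the last listed site of each gene, Arntl was above Clock in obesity library 3 (10.6 against 5.57 CPM) and obesity library 4 (6.73 against 4.48 CPM). Clock was the higher there in the other libraries.

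The main comparison asked whether the clock genes differed between rats with diet-induced obesity and controls. Clock, Arntl and Per1 had higher means in obesity and Cry2 a lower mean, and none of the 8 genes passed an adjusted p of 0.1 (edgeR quasi-likelihood test, smallest adjusted p 0.905). Over all 12239 genes that threshold was also passed by 0 genes (0%). At an unadjusted p under 0.05 the count of clock genes was 0 of 8, against 646 genes (5.28%) in the table, and DESeq2 gave 0 as well. Of the 8 genes, 5 had a log2 fold change above 0 and 3 below it, with a median of 0.077, beside a median of 0.0085 over all genes. The groups overlapped in CPM for each of the 8 genes, whereas 3.53% of all genes had groups that did not overlap.

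**Figure D1:**
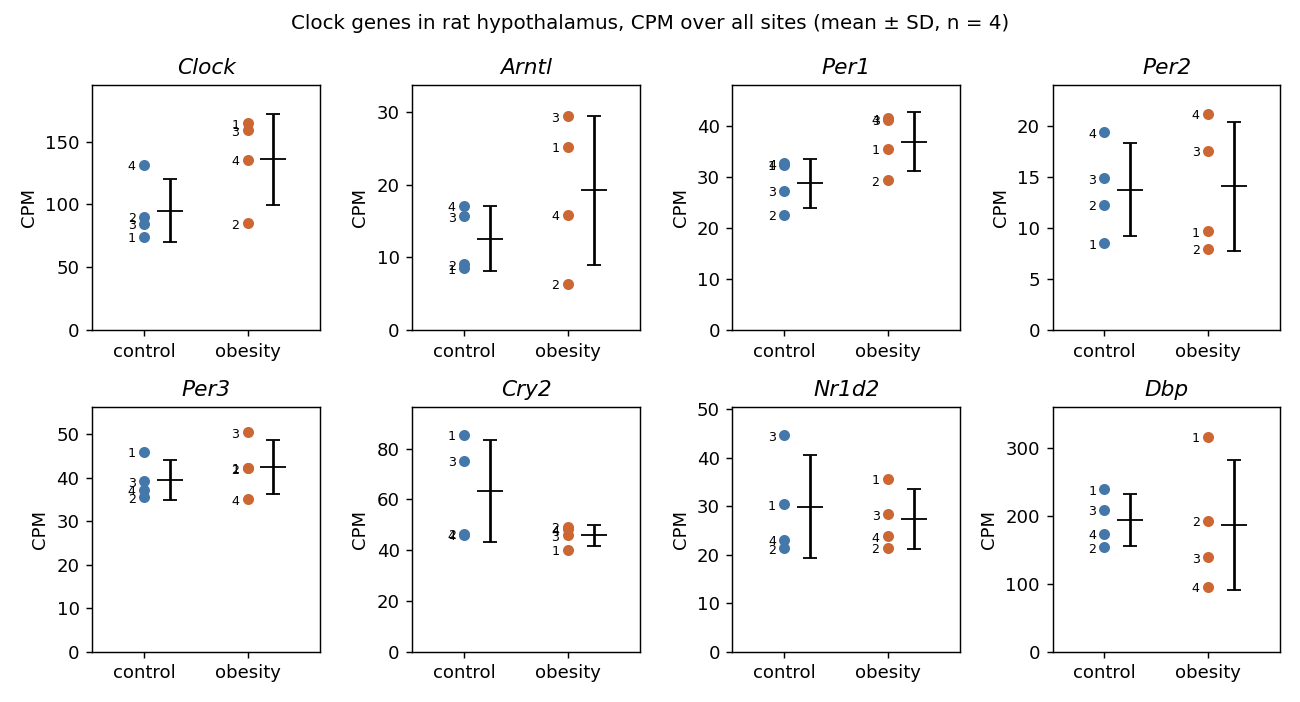
CPM of the 8 measured clock genes (vertical axis, linear, from 0) in each control (blue) and obesity (orange) library, numbered as in the labels, with the mean and SD of each group in black (n = 4). Clock sits at 135 to 165 CPM in obesity libraries 1, 3 and 4 and at 85.0 CPM in obesity library 2, inside the control range, and the groups overlap in every panel.

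Among the activators, Clock encodes the partner that binds DNA with Arntl. Clock had 74.2, 90.4, 84.5 and 132 CPM in control libraries 1 to 4 and 165, 85.0, 159 and 135 CPM in obesity libraries 1 to 4. Obesity libraries 1, 3 and 4 were above every control library, and obesity library 2 lay among the controls. The group means were 95.2 ± 25.2 and 136 ± 36.4 CPM (SD, n = 4), and the log2 fold change was 0.52 (SE 0.26, 95% interval -0.027 to 1.06, unadjusted p 0.0614, adjusted p 0.905, edgeR). With the library number as a block the unadjusted p was 0.0259 and the adjusted p 0.376 (edgeR), so that Clock became 1 of 8 clock genes under 0.05, where 10.9% of all genes were. Under that block 0.123% of genes passed the adjusted threshold, and 0 of them were clock genes. Without obesity library 2, the library whose mitochondrial share lay in the control range, the log2 fold change of Clock was 0.67 (unadjusted p 0.0143, adjusted p 0.401, edgeR). The part of that share in the result was not tested. With a library left out, the log2 fold change ranged from 0.40 without control library 1 (unadjusted p 0.167) to 0.71 without control library 4 (unadjusted p 0.0208, edgeR). Without both libraries numbered 1 it was 0.30 (adjusted p 0.995, edgeR). The most used Clock site, described below, had means of 33.2 CPM in controls and 62.6 CPM in obesity. The other Clock sites on the gene strand had log2 fold changes from -1.30 to 0.85, so the higher total was not shared by all sites.

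Arntl encodes the other activator, the core loop's partner of Clock. Its levels were 8.48, 9.04, 15.7 and 17.1 CPM in the controls and 25.2, 6.36, 29.4 and 15.9 CPM in obesity. Obesity libraries 1 and 3 were above all controls, while obesity library 2 was the lowest of the 8. Arntl had a log2 fold change of 0.62 (SE 0.50, 95% interval -0.43 to 1.67, adjusted p 0.927, edgeR), and it was higher in obesity in 2 of 4 pairs of libraries with the same number. It was 0.33 without obesity library 3 and 0.32 without both libraries numbered 1. The interval holds values below 0 as well as increases of more than 2-fold, at 8 to 52 reads per library.

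The period genes encode the repressors that pace the loop. Per1 had 32.5, 22.6, 27.4 and 32.7 CPM in controls and 35.6, 29.4, 41.3 and 41.6 CPM in obesity. Obesity was higher in 4 of 4 pairs, and obesity library 2 lay inside the control range. The log2 fold change of Per1 was 0.36 (SE 0.31, 95% interval -0.29 to 1.02, adjusted p 0.938, edgeR). Per2 was at 8.48 to 19.3 CPM in controls and 7.94 to 21.1 CPM in obesity, with a log2 fold change of 0.046 (SE 0.48, 95% interval -0.97 to 1.06), so that a change of about 2-fold either way lay within the interval. Per3 was the steadiest member, at 35.5 to 45.9 CPM in controls and 35.0 to 50.4 CPM in obesity, with a log2 fold change of 0.11 (SE 0.28, 95% interval -0.49 to 0.71).

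Cry2 encodes a cryptochrome, the co-repressor that acts with the period proteins. Over all of its sites it had 85.5, 46.5, 75.1 and 46.1 CPM in controls and 40.1, 49.3, 45.9 and 48.2 CPM in obesity. Control libraries 1 and 3 were high, and control libraries 2 and 4 lay among the obesity libraries. Its log2 fold change was -0.46 (SE 0.28, 95% interval -1.06 to 0.14, adjusted p 0.912, edgeR), -0.30 without control library 1 and -0.24 without both libraries numbered 1. Of its 5 sites, 1 lay on the strand opposite to the others. On the strand of the gene Cry2 had 75.7, 48.2, 74.0 and 47.1 CPM in controls and 39.1, 43.9, 35.1 and 46.3 CPM in obesity, so that each obesity library was below each control library. Groups did not overlap on the gene strand for 3.45% of all genes, and for 1 of the 8 clock genes. The log2 fold change there was -0.58 (SE 0.28, unadjusted p 0.0571, adjusted p 0.922, edgeR), where 5.07% of all genes had an unadjusted p under 0.05 and 0 of the 8 clock genes did.

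Nr1d2 encodes REV-ERB beta, a repressor of Arntl. It was at 21.3 to 44.6 CPM in controls and 21.4 to 35.6 CPM in obesity, with a log2 fold change of -0.12 (SE 0.36, 95% interval -0.87 to 0.62, adjusted p 0.992, edgeR). The obesity range lay inside the control range, and control library 3 was the highest.

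Dbp encodes a D-box activator and is the output member of the set. Over all sites it had 239.5, 154, 209 and 173 CPM in control libraries 1 to 4, and 317, 193, 139 and 95.8 CPM in obesity libraries 1 to 4. Obesity library 1 was the highest of all libraries and obesity library 4 the lowest, so the obesity group spread on both sides of the controls. Its log2 fold change was -0.059 (SE 0.30, 95% interval -0.69 to 0.57, adjusted p 0.993, edgeR).

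The reads of Dbp split by strand. Its principal site (Rnor_6.0, chr1:101692822-101692879, plus strand) held 75.8% of the reads, with 248, 210, 244 and 202 reads in controls and 153, 219, 214 and 131 in obesity. A site on the opposite strand (chr1:101689134-101689145) held 19.0% of the reads, with 72, 12, 9 and 12 reads in controls and 266, 8, 18 and 9 in obesity. Both libraries numbered 1 were high at that site, and the other 6 had 8 to 18 reads. On the gene strand alone, Dbp had 189, 151, 209.7 and 168 CPM in control libraries 1 to 4, and 121, 191, 134 and 92.6 CPM in obesity libraries 1 to 4. Obesity libraries 1, 3 and 4 were then below all controls, and obesity library 2 was inside the control range. The log2 fold change on the gene strand was -0.42 (SE 0.24, 95% interval -0.92 to 0.084, unadjusted p 0.0969, adjusted p 0.923, edgeR), and over all sites it was -0.44 without obesity library 1 and -0.34 without both libraries numbered 1 (adjusted p 0.995 for the latter, edgeR). Without obesity library 2 it was -0.63 on the gene strand (unadjusted p 0.0140, adjusted p 0.418, edgeR), the largest change with a library left out. The smallest was -0.26, without obesity library 4 (unadjusted p 0.294, edgeR).

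**Figure D2:**
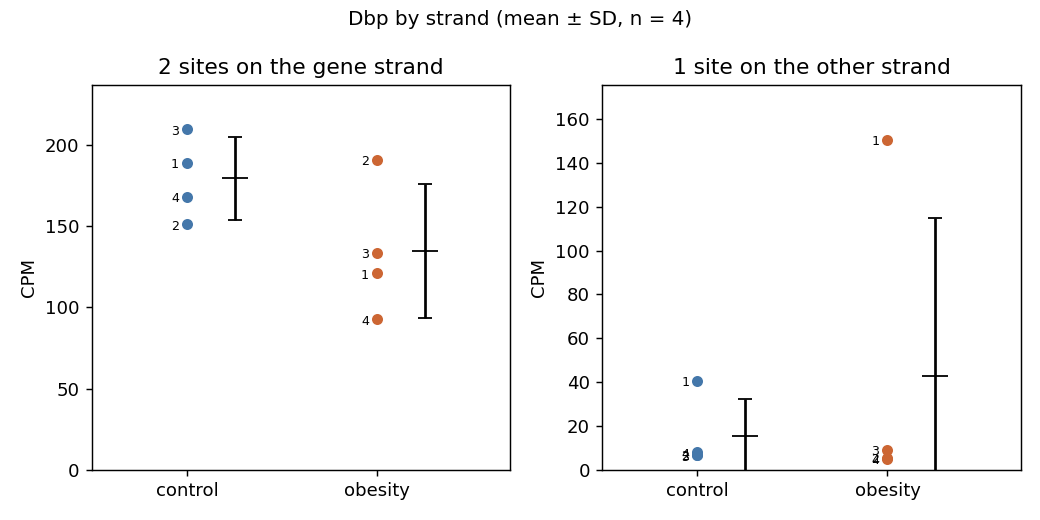
Dbp CPM (vertical axes, linear, from 0, with a scale of its own in each panel) at the 2 sites on the gene strand (left) and at the site on the other strand (right), by library number, with the mean and SD of each group (n = 4, SD bars stop at 0). On the other strand control library 1 is at 40.5 CPM and obesity library 1 at 150.6 CPM, and the other 6 libraries are at 5.05 to 9.11 CPM.

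With the gene strand and the library number as a block together, 3 of the 8 clock genes had an unadjusted p under 0.05, where 11% of all genes did. These were Clock (log2 fold change 0.44, SE 0.21, unadjusted p 0.0450), Cry2 (-0.55, SE 0.27, unadjusted p 0.0479) and Dbp (-0.45, SE 0.19, unadjusted p 0.0246). Their adjusted p-values were 0.443, 0.451 and 0.373 (edgeR), all above 0.1. The other 5 genes had unadjusted p-values of 0.235 to 0.997. This setting was chosen after the data were seen.

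**Figure D3:**
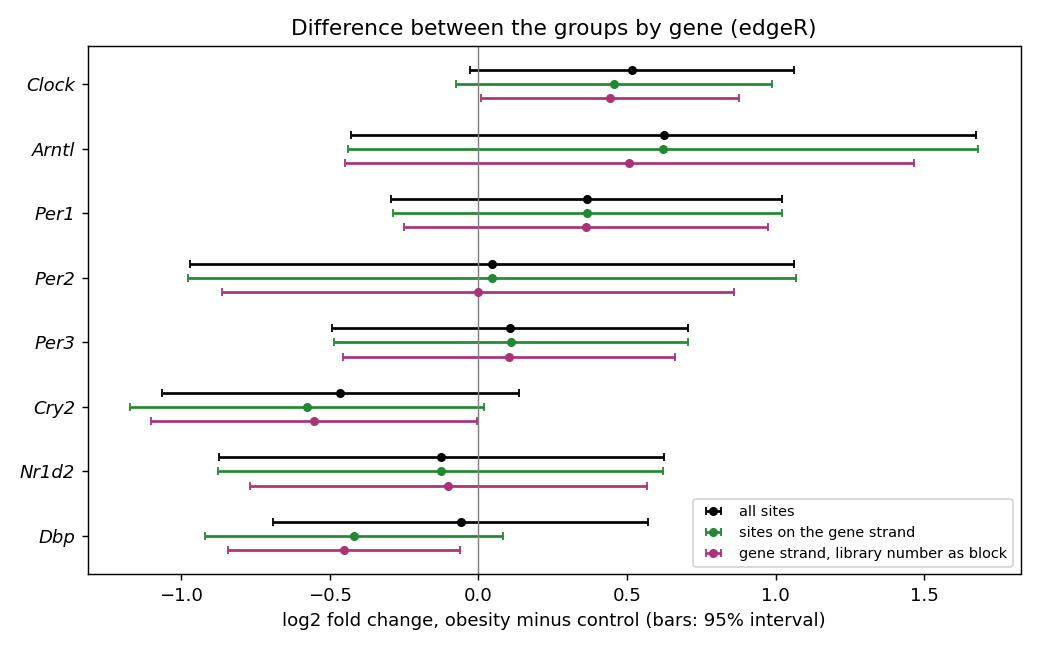
Log2 fold change, obesity minus control (horizontal axis), of each clock gene, with 95% intervals from edgeR over all sites (black), over sites on the gene strand (green) and over the gene strand with the library number as a block (purple). Clock, Arntl, Per1 and Per3 lie to the right of 0 and Cry2, Nr1d2 and Dbp to the left in each setting. Dbp moves from -0.059 to -0.42 between black and green. No black interval leaves out 0, while the purple intervals of Clock, Cry2 and Dbp do.

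The single polyadenylation sites were compared next. Of the 42 sites, 37 were on the strand of the gene and 5 on the other. Of the clock gene sites 19 (45.2%) had at least 1 read in each library, against 55.2% of all sites. At an adjusted p of 0.1 there were 0 clock gene sites, and 1 site of the whole table (0.00135%) passed. An unadjusted p under 0.05 was reached by 1 of the 42 sites without the block, where 3.14% of all sites reached it, and by 2 with the block, where 6.09% did. The groups did not overlap at 0 of the 42 sites, against 3.11% of all sites.

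The site under 0.05 was the most used Clock site (Rnor_6.0, chr14:34439650-34439675, plus strand), the 3rd of 10 from 5′ to 3′ on the gene strand. It lay 56114 bases before the last listed Clock site and held 48.9% of the reads of the gene. It had 46, 51, 41 and 72 reads in controls and 129, 52, 152 and 115 reads in obesity. The means were 33.2 ± 9.67 and 62.6 ± 18.5 CPM (SD, n = 4), with obesity higher in 4 of 4 pairs and obesity library 2, at 36.0 CPM, below control library 4, at 47.4 CPM. The log2 fold change was 0.92 (SE 0.37, unadjusted p 0.0261, adjusted p 1.00, edgeR). It was 0.90 with the block (unadjusted p 0.00629, adjusted p 0.552, edgeR) and 0.72 without both libraries numbered 1 (unadjusted p 0.111, adjusted p 1.00, edgeR). The last listed Clock site (chr14:34495765-34495773) had only 63 reads, with 20, 4, 7 and 4 in controls and 7, 2, 11 and 8 in obesity.

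**Figure D4:**
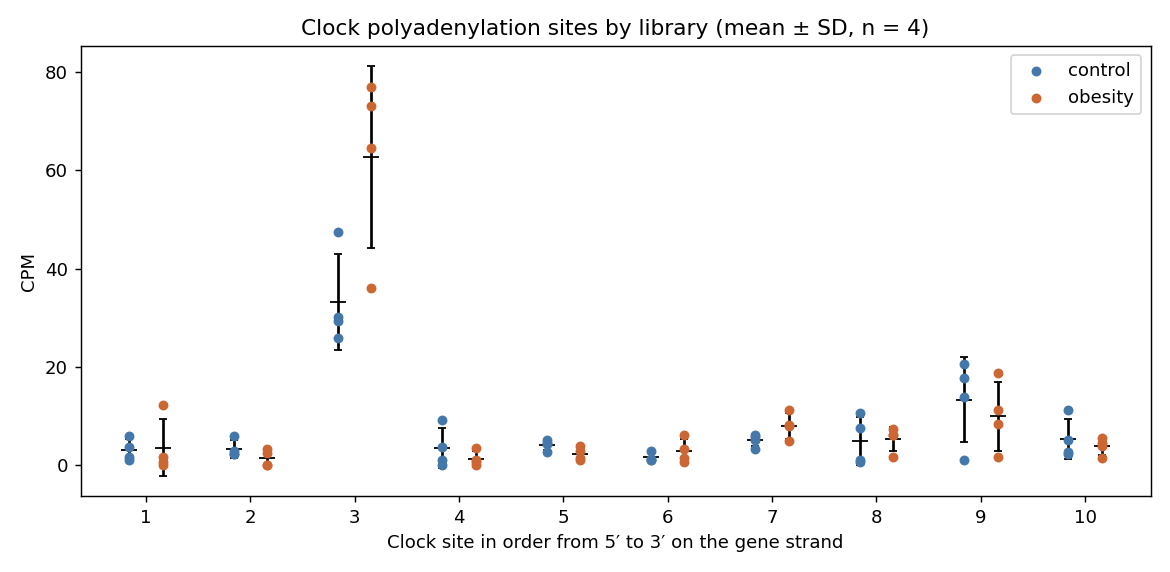
CPM (vertical axis, linear) of the 10 Clock sites on the gene strand, in order from 5′ to 3′ (horizontal axis, ranks and not distances), for each control (blue) and obesity (orange) library, with the mean and SD (n = 4). Site 3 has 33.2 CPM in controls and 62.6 CPM in obesity, and the other 9 sites stay under 21 CPM in every library with the groups overlapping.

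As a share of the Clock reads on the gene strand, that site took 46.9, 39.5, 38.3 and 46.2% in controls and 67.5, 51.5, 59.8 and 65.0% in obesity. Each obesity library was above each control library, obesity library 2 included. The means were 42.7% ± 4.44 and 61.0% ± 7.08 (SD, n = 4). A 2-sided exact permutation test gave p = 0.0286, the smallest that 4 against 4 libraries can give, and 0.755 after adjustment over the 37 gene-strand sites. Groups of 4 that do not overlap always give this unadjusted p, so it adds nothing to the lack of overlap. Exchanged only within the 4 pairs of libraries with the same number, the exact p was 0.125, the smallest that 16 arrangements can give, so a paired test could not pass 0.05. This was the only one of the 37 shares whose groups did not overlap, where 2.78% of the shares of all genes with 2 or more sites did not, and the share was tested after its values were seen. The planned test of site usage within genes, over sites on both strands, gave Clock a Simes p of 0.556 (edgeR). None of the 8 clock genes had a Simes p under 0.05, against 1.84% of 8267 genes, and none passed an adjusted p of 0.1, against 0.0121%. The lowest Simes p was that of Dbp, at 0.115, and its adjusted p was 1.00 (edgeR). It rested on single libraries, since the Simes p of Dbp was 0.00999 without control library 1, 0.0312 without obesity library 2 and 0.808 without obesity library 1 (adjusted p 1.00 in each, edgeR). The test of Dbp included its site on the opposite strand, where both libraries numbered 1 were high. On the gene strand, the last Dbp site took 92.9% ± 1.30 of the reads in controls and 94.6% ± 1.38 in obesity (SD, n = 4).

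The second site under 0.05 with the block was a Cry2 site (chr3:81315668-81315671, minus strand), 1515 bases before the last site of the gene. It had 48, 10, 26 and 14 reads in controls and 13, 14, 13 and 0 in obesity. Its log2 fold change with the block was -1.50 (SE 0.63, unadjusted p 0.0249, adjusted p 0.737, edgeR), and without the block -1.37 (unadjusted p 0.106). The last site of Cry2 (chr3:81314154-81314164) held 57.8% of its reads, with 53, 61, 59 and 32 in controls and 31, 37, 32 and 54 in obesity. Obesity was lower there in 3 of 4 pairs.

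The remaining genes differed in where their reads ended. Per1 used the site at chr10:55695887-55695896 for 72.4% of its reads, 644 bases before its last site, with 40, 26, 19 and 26 reads in controls and 25, 27, 65 and 48 in obesity. Nr1d2 had 52.0% of its reads at the 2nd of 4 sites, and Per2 had 51.2% at its last site, with 2 to 27 reads per library. Per3 spread over 8 sites, none with more than 21.6% of the reads. The last Arntl site (chr1:178119876-178119892) had 5, 0, 3 and 0 reads in controls and 0, 0, 21 and 12 in obesity, so that 4 of the 8 libraries held all of its 41 reads. Like all 42 clock gene sites, none of these sites passed the adjusted threshold, and the part of depth in this was not tested.

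Co-variation was examined because the clock genes peak at different times of day. The difference between log2 CPM of Dbp and of Arntl, which peak at opposite phases, was taken as a description of each library. It was 4.61, 3.89, 3.63 and 3.24 in controls and 3.58, 4.65, 2.19 and 2.49 in obesity. Obesity libraries 3 and 4 were below all controls and obesity library 2 was the highest of the 8. The control mean was 3.84 ± 0.578 and the obesity mean 3.23 ± 1.12 (SD, n = 4), which differ by -0.61. On the gene strand the means were 3.71 ± 0.460 and 2.82 ± 1.20, which differ by -0.89. The difference between the groups was smaller than the SD within obesity, and the index was higher in obesity in 1 of 4 pairs. Single libraries set its size, as it was -1.09 without obesity library 2, -0.27 without obesity library 3, -0.37 without obesity library 4 and -0.36 without control library 1.

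**Figure D5:**
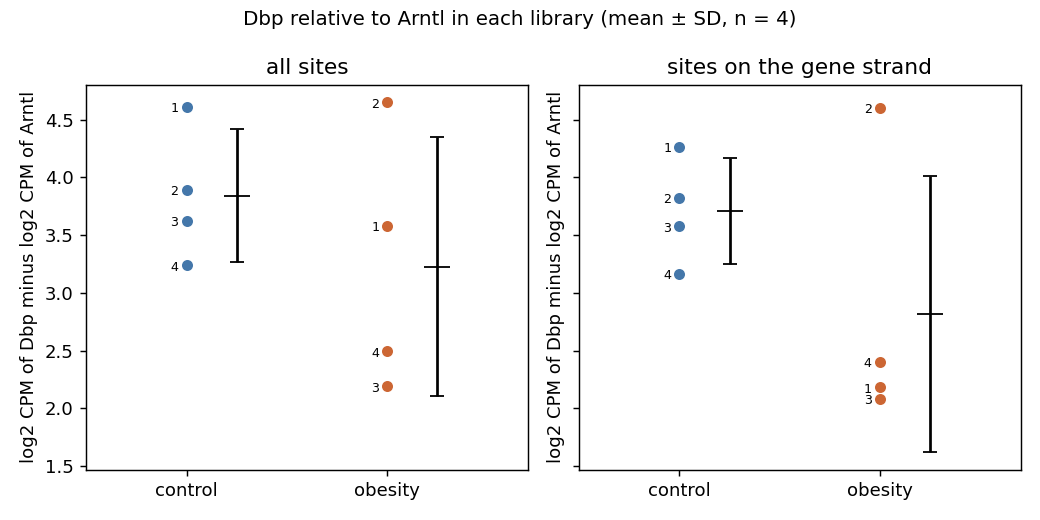
Log2 CPM of Dbp minus log2 CPM of Arntl (vertical axis) in each library, over all sites (left) and over sites on the gene strand (right), with the mean and SD (n = 4). Obesity library 2 is the highest of the 8 in both panels, and obesity library 1 falls from 3.58 to 2.18 once the site on the other strand is left out.

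Correlations with Dbp over the 8 libraries were computed for the other 7 genes, with exact permutation p-values over pairings. Over all 8 libraries none of the 7 passed an adjusted p of 0.05 by r or by rho. With a library left out none passed by r, and 1 passed by rho in 2 settings, Clock without obesity library 1 (rho -0.929, exact permutation p 0.00675, adjusted 0.0472) and Per3 without obesity library 3 (rho 0.929, exact permutation p 0.00675, adjusted 0.0472). Over all libraries the largest correlation was that of Per2, with Pearson's r -0.721 (permutation p 0.0403, adjusted 0.282) and Spearman's rho -0.690 (permutation p 0.0694, adjusted 0.486). Without the 2 libraries farthest from the median of Dbp, r for Per2 was -0.585, that for Cry2 went from 0.219 to 0.867 and that for Clock from -0.176 to -0.787, so the order of the genes over all sites rests on those libraries. In obesity library 1, the highest in Dbp, 266 of the 427 Dbp reads lay at the site on the opposite strand. On the gene strand the largest by Pearson's r was Clock, with r -0.699 (permutation p 0.0554, adjusted 0.265) and rho -0.690 (permutation p 0.0694, adjusted 0.243), and the largest by rank was Per1, with rho -0.738 (permutation p 0.0458, adjusted 0.243) and r -0.646 (permutation p 0.0830, adjusted 0.265). Per2 was at r -0.452 there, and Cry2 at r 0.604 (permutation p 0.113, adjusted 0.265). The library number may enter these values, since libraries with the same number deviated together.

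Genes that work beside the core loop were taken from a list of 24, of which 19 had sites. The list holds further activators and repressors, the sister D-box factors of Dbp, and the kinases, phosphatase and ubiquitin ligases that set the stability of the clock proteins. None passed the adjusted threshold. Of the 19 genes, 8 were above 0 and 11 below, with a median log2 fold change of -0.13, beside 0.0085 over all genes. An unadjusted p under 0.05 was reached by 1 gene, where 5.28% of all genes reached it, and by 4 with the block (smallest adjusted p 0.297, edgeR), where 10.9% of all genes did.

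That gene was Ppp1cb, a catalytic subunit of the phosphatase that acts on period proteins. It had 89.0, 116, 99.4 and 100.4 CPM in controls and 51.2, 86.6, 78.7 and 62.1 CPM in obesity, so the groups did not overlap, as for 3.53% of all genes, and its log2 fold change was -0.54 (SE 0.24, unadjusted p 0.0399, adjusted p 0.905, edgeR). Usp2, a deubiquitinating enzyme of clock proteins, had 21.2, 25.8, 14.9 and 21.6 CPM in controls and 2.97, 15.1, 15.3 and 10.6 CPM in obesity, with a log2 fold change of -0.92 (SE 0.49, unadjusted p 0.0771, adjusted p 0.907, edgeR). Hlf and Tef, which bind the same D-box as Dbp, had log2 fold changes of -0.38 (SE 0.23, unadjusted p 0.119) and -0.34 (SE 0.22, unadjusted p 0.148), and each was lower in obesity in 3 of 4 pairs. Tef was at 156 to 314 CPM in controls and 173 to 195 CPM in obesity. Btrc, a ubiquitin ligase subunit for period proteins, and Gsk3b, a clock kinase, had log2 fold changes of 0.10 (SE 0.20) and -0.16 (SE 0.20).

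Markers of the suprachiasmatic nucleus were counted as well, because the share of that nucleus in a dissection can move clock transcripts. Of 15 listed markers 6 had sites, and rows were not found for 9, among them the defining peptides Vip, Grp and Nms. Of the 6, 4 were above 0 and 2 below, with a median log2 fold change of 0.023, and 0 passed the adjusted threshold. Avp, the vasopressin gene, which is also expressed in the paraventricular and supraoptic nuclei, had 812 to 1174 CPM in controls and 600.5 to 798 CPM in obesity. Its groups did not overlap on this scale (3.53% of all genes), but they overlapped after scaling to gene-strand counts, with obesity library 3 at 825 and control library 1 at 813 CPM. Its log2 fold change was -0.44 (SE 0.19, unadjusted p 0.0336, adjusted p 0.905, edgeR), and -0.43 with the block (adjusted p 0.207, edgeR). Zfhx3, a transcription factor of the nucleus, had a log2 fold change of 0.22 (SE 0.20), Adcyap1r1, the PACAP receptor gene, of 0.38 (SE 0.40), and Six3, at 0 to 27 reads per library, of -1.20 (SE 1.06). The part of the dissection in the clock gene values was not tested.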

How the data were processed

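The table deposited by the authors holds raw counts of reads at each polyadenylation site, not normalized, for 8 WTTS-seq libraries from 8 rats. The submitters' processing notes name the assembly Rnor_6.0 and Bowtie2 2.2.3, and filters on sites are not given in the sources used here. The lowest site total was 30 reads. The 1 row without a site was left out. Reads carry no molecular identifiers, and sites next to A-rich sequence were not removed. Gene counts were sums over all sites of a symbol, and in an alternative over the strand with most reads of the gene.

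Genes and sites were tested with the quasi-likelihood test of edgeR 4.0.16 (TMM, robust; R 4.3.3). P-values were adjusted by Benjamini-Hochberg over 12239 genes or 73922 sites, and the threshold was 0.1. Site usage was tested with diffSpliceDGE and Simes p-values, over the sites of a gene on both strands. Alternatives were DESeq2 1.42.0, its size factors, a filter on low counts, each library left out and the library number as a block. Log2 CPM used a prior count of 2. Tests were checked on simulated counts, with planted changes larger than those of the clock genes in the main fit. The simulation held no effect shared by library number, so it does not show how well smaller changes would be found in these libraries.

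Both groups carry the numbers 1 to 4. Deviations from the group mean correlated at 0.221 to 0.327 between libraries with the same number and at -0.175 to 0.0497 between others. Libraries with the same number were therefore counted as pairs, although no label explains the number. The main tests and the correlations did not use the number, and it entered as a block only in alternative fits. Chi-square values per site between libraries were 2.86 to 9.35, above sampling noise.

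The named genes are all 10 clock genes, and of each list the 3 with the smallest p and the 3 with most reads. Sites named hold 10% or more of a gene's reads, or are the last site. Other named sites were chosen after their values were seen. The clock genes and lists were chosen with earlier results of these data known.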

Additional observations from a re-analysis of the deposited data

Results flagged for a closer look

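Among 74 checks of single sites and genes in groups of 4 libraries, 6 found a library that stood apart from the rest of its group by Dixon's criterion, where chance gives about 1 in 20. The Dbp site on the opposite strand (chr1:101689134-101689145) gave 2 of them, at 40.5 CPM in control library 1 (the other controls at 6.61 to 7.91) and at 150.6 CPM in obesity library 1 (the others at 5.05 to 9.11). The first Per1 site (chr10:55682636-55682644) was at 13.0 CPM in obesity library 1, with the other obesity libraries at 3.46 to 3.92. The controls were at 0 to 10.5 CPM there. The first Nr1d2 site (chr15:8733288-8733295) was at 14.2 CPM in obesity library 1 and at 0 to 1.12 CPM in the other obesity libraries. Among the controls, that site was at 12.4 CPM in library 1, 8.08 CPM in library 3 and at most 0.575 CPM in the rest. A further Nr1d2 site (chr15:8748425-8748432) was at 0 CPM in obesity library 2, with the other obesity libraries at 4.48 to 5.10. The controls were at 1.15 to 3.94 CPM there. The middle Per2 site (chr9:98570750-98570769) was at 5.27 CPM in control library 4, with the other controls at 1.73 to 2.25. Apart from the Dbp site, these values rest on 0 to 25 reads.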

How the results depend on the processing

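Of 336 alternative values, 312 were classed as unchanged, 15 as reversed and 9 as moved. A log2 fold change was unchanged if it kept its direction and its side of the threshold, and a count if it stayed at 0. The size of a change did not enter. Dbp, at -0.059 in the main fit and -0.63 on the gene strand without obesity library 2, was therefore unchanged. With 0 genes past the threshold in the main fit, the class says little about how stable the values are. The index of Dbp to Arntl was unchanged if its group difference stayed within the larger group SD of the main value. The count of clock genes, of their sites and of their site usage past the adjusted threshold was 0 in every alternative run. The count of clock genes with an unadjusted p under 0.05 went from 0 to 1 with the replicate block and to 3 with the block on the gene strand, and ranged from 0 to 2 when a library was left out, with 1 without control library 4 or obesity library 2 and, on the gene strand, 1 without control library 2 and 2 without control library 4 or obesity library 2. The log2 fold change of Per2 was -0.0020 with the block and -0.0017 with the block on the gene strand, and it ranged from -0.21 to 0.25 when a library was left out. With a library left out, that of Dbp ranged from -0.44 to 0.16 over all sites and from -0.63 to -0.26 on the gene strand, and that of Nr1d2 from -0.28 to 0.13 over all sites and to 0.14 on the gene strand. Likewise Arntl ranged from 0.33 to 0.89, Clock from 0.40 to 0.71, Cry2 from -0.59 to -0.30, Per1 from 0.26 to 0.45 and Per3 from 0.012 to 0.19 over all sites. The count of genes correlated with Dbp at an adjusted p under 0.05 was 0 by Pearson's r throughout, and by rank it ranged from 0 to 1 when a library was left out, with 1 without obesity library 1 or 3. The count by rank was added after the data were seen. The block changed no other direction. Values of sites under 50 reads are limited by depth.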
